A study of Mus musculus with 13 samples.

Results

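The 8 mature microRNAs (miRNAs) described here are associated with white blood cells and with inflammation. The names mmu-miR-223-3p, mmu-miR-142a-3p and mmu-miR-142a-5p form a myeloid group, mmu-miR-146a-5p, mmu-miR-146b-5p and mmu-miR-155-5p an inflammation-induced group, and mmu-miR-150-5p and mmu-miR-342-3p a lymphoid group, and the species prefix is left out from here on. They were taken by name, and all 8 were found among the 1354 miRNAs counted in plasma vesicles and the 1164 counted in tumour cell vesicles. The study profiled small RNA of extracellular vesicles from mice with cancer cachexia, a tumour-driven loss of muscle and weight. C26, an established colon adenocarcinoma line, was the tumour. Plasma vesicles gave 6 libraries from C26-bearing Balb/C mice, labelled cachectic, killed on day 14 after C26 cells were injected under the skin of the back, and 4 from Balb/C controls, labelled healthy. Vesicles shed by cultured C26 cells, called tumour microvesicles (TMVs) here, gave 3 libraries from medium without serum conditioned for 48 h. The sources used here do not give the age or sex of the mice. The labels of control replicates 2 and 3 carry a pair of numbers each, whose meaning is not stated. Whether the libraries are separate animals is not stated either, and p-values cover only the spread between libraries, which may be technical.

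A miRNA guides a silencing complex to messenger RNAs that pair with its seed, bases 2 to 8 from its 5′ end, and lowers their translation and stability. miR-223 is the leading miRNA of neutrophils and is also plentiful in platelets. miR-142 is made by nearly all blood cells, lymphocytes included, so the name of the myeloid group is looser for its arms. miR-146a and miR-146b are switched on by NF-kB and damp Toll-like receptor signalling by repressing TRAF6 and IRAK1. miR-155 is switched on in activated macrophages, B cells and T cells and promotes inflammation. miR-150 marks resting mature B and T cells, where it represses the transcription factor Myb, and miR-342 is abundant in lymphocytes. In vesicles, fewer particles from a cell type and less of a miRNA in each particle cannot be told apart.

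The mature sequences show which of these miRNAs could share targets and which could share counts. The table of RefSeq sequences used here, on GRCm38.p6, matched 7 of the 8 by name, which are printed 5′ to 3′ with the seed in capitals.
miR-223-3p: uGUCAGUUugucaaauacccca
miR-142a-3p: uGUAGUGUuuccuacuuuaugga
miR-142a-5p: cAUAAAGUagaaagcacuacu
miR-146a-5p: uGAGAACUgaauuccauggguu
miR-146b-5p: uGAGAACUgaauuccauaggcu
miR-155-5p: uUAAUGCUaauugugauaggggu
miR-342-3p: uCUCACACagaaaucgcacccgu

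The 7 sequences carried 6 seeds, and only miR-146a-5p and miR-146b-5p had the same one. Among the 1679 mature miRNAs in the RefSeq table no other miRNA had any of these 6 seeds. The miR-146 pair matched at 20 of 22 positions and differed by G18A and U21C, where the base of miR-146a-5p comes first and positions are counted from its 5′ end. The sources used here do not say how reads ending before position 18 were assigned. The lengths of the 7 ran from 21 to 23 bases, so counts were not divided by length when levels of different miRNAs were set side by side.

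The opposite arms of 3 precursors are printed as well, because the balance between arms changed from library to library.
miR-223-5p: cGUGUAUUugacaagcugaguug
miR-342-5p: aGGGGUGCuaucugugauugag
miR-150-3p: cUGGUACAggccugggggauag

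The precursors lie at 7 sites in GRCm38 (GENCODE M21), while the sources used here name no build for the counts. Mir223 lies on the X chromosome at chrX:96242817-96242926, in an exon of the non-coding transcript F630028O10Rik. Mir142, at chr11:87756864-87756927, gives both miR-142a arms, lies in an intron of its host transcript Mir142hg and overlaps Mir142b on the other strand. Mir146, at chr11:43374397-43374461, is the precursor of miR-146a and overlapped no other annotated gene. Mir146b lies at chr19:46342762-46342870 in an intron of Mfsd13a, and Mir155 at chr16:84714140-84714204 in an exon of its host transcript Mir155hg. Mir150, at chr7:45121757-45121821, overlapped no other annotated gene, and Mir342 lies in an intron of Evl at chr12:108658620-108658718.

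Plasma libraries held from 7962 to 131385 counts and TMV libraries from 112357 to 170571. Where a library has 0 counts, the limit of 3 counts is a share of 0.0377% in control replicate 4, the shallowest library, and 0.00228% in control replicate 3, the deepest in plasma. The plasma libraries fell into 2 parts that cross the groups: the share of miR-5119 ran from 26.6% to 58.7% in control replicate 4 and C26-bearing replicates 1 to 4, and from 0.0968% to 2.55% in the other 5. By the S numbers that end the labels, the rich libraries were 18 to 22 and the poor ones 15 to 17, 23 and 24, and what these numbers stand for is not stated. The 4 red cell markers in the table held from 3.38% to 8.12% of the counts in the libraries rich in miR-5119 and from 19.5% to 52.7% in those poor in it. The 6 epithelial markers held from 0.147% to 0.376% and from 0.506% to 1.52% of the counts in the same parts. These shares keep miR-5119 in the totals, which lowers every other share in the rich libraries. Marker shares without miR-5119 were not computed, so how much of either gap remains is not known. In TMVs the epithelial markers held from 0.00136% to 0.00178%, with miR-200a-3p and miR-141-3p at 0, so the labelled colon adenocarcinoma cells showed almost none of these miRNAs in their vesicles. The platelet and endothelial markers miR-126a-3p and miR-126a-5p together held from 0.428% to 1.54% of C26-bearing plasma counts and from 0.656% to 1.19% of control counts. By part they overlapped, from 0.678% to 1.54% in the rich and from 0.428% to 1.41% in the poor libraries. The liver markers, both arms of miR-122, overlapped too, from 0.510% to 8.20% in the rich and from 0.524% to 25.5% in the poor libraries. So did the muscle markers miR-1a-3p, miR-133a-3p and miR-206-3p, from 1.94% to 14.9% and from 0.725% to 8.80%.

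Together the 8 miRNAs made up 0.776% ± 0.230 (SD, n = 6) of all counts with C26 tumours, 0.95% ± 0.196 (SD, n = 4) in controls and 1.25% ± 0.0300 (SD, n = 3) in TMVs. By mean share, miR-142a-5p was the 45th of 849 miRNAs detected in C26-bearing plasma, the highest of the 8. In control plasma it was the 44th of 594, just behind miR-146a-5p, the 43rd, whose mean was raised by control replicate 4. In TMVs it was miR-146b-5p, the 24th of 667. The plot of shares by library shows that miR-142a-5p, miR-146a-5p and miR-146b-5p had at least 10 counts in all 13 libraries, while miR-223-3p, miR-155-5p and miR-342-3p had libraries at 0.

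**Figure D1:**
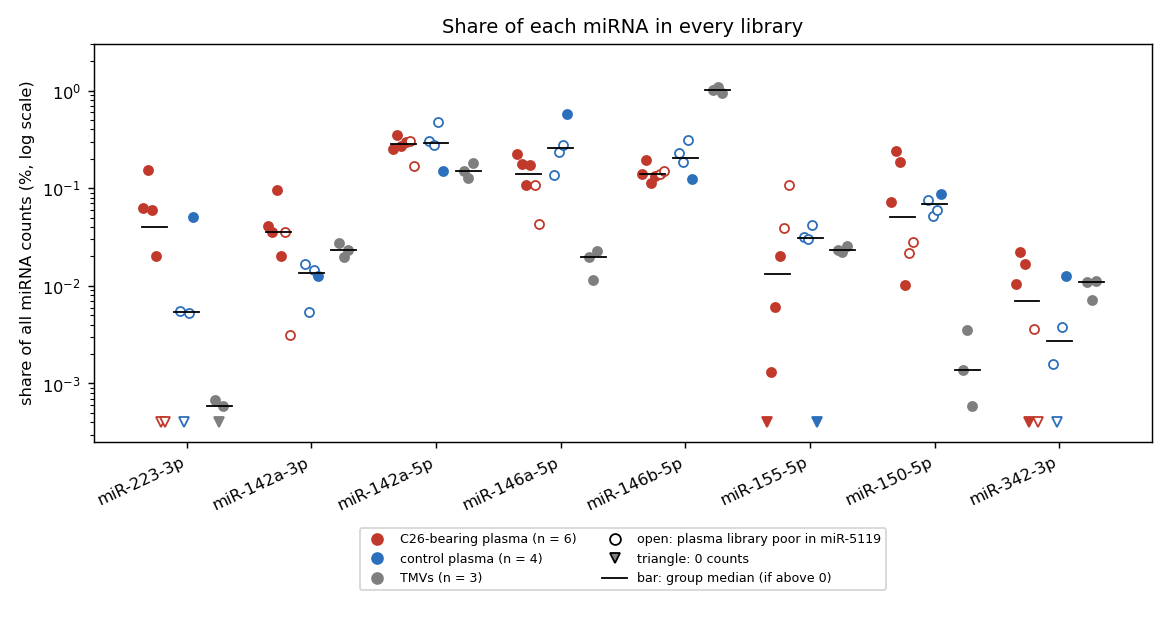
Share of all miRNA counts (percent, log axis) held by each of the 8 miRNAs in every library, for C26-bearing plasma (red, n = 6), control plasma (blue, n = 4) and TMVs (grey, n = 3). Open circles are plasma libraries poor in miR-5119, triangles are libraries with 0 counts and bars are group medians. miR-223-3p was higher in all libraries rich in miR-5119 than in all poor ones, miR-155-5p was the reverse, and miR-146b-5p was near 1.02% in TMVs.

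The plasma comparison asks how vesicles of C26-bearing mice differ from those of controls. It was fitted with edgeR's quasi-likelihood test over the 130 miRNAs that passed the filter on low counts, with Benjamini-Hochberg adjustment over all 130, and fold changes are C26-bearing minus control. Levels are CPM, counts scaled by the summed counts of the 130 miRNAs tested and a TMM factor, which bring libraries of different make-up to a common middle. Of the 8 miRNAs 7 passed the filter, and miR-342-3p did not. None of the 7 passed an adjusted p of 0.05, against 0% of all 130, and none had an unadjusted p under 0.05 with edgeR, against 11.5% of all 130. DESeq2, which called 3.08% of the 130 (1.54% in each direction), and limma voom with sample quality weights, which called 13.1% (5.38% higher and 7.69% lower), called none of the 7 either. The 7 fold changes had a median of 0.29 on the log2 scale, with 5 above 0 and 2 below, against a median of 0.01 over all 130, with 66 above 0 and 64 below. None of the 7 separated the groups without overlap, while 0.769% of the 130 lay wholly higher and 0.769% wholly lower in C26-bearing plasma.

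miR-223-3p, the neutrophil and platelet miRNA, was counted 12, 117, 40, 2, 0 and 0 times in C26-bearing replicates 1 to 6 and 7, 0, 7 and 4 times in control replicates 1 to 4. These counts correspond to 643, 1466, 950.5, 203, 0 and 0 CPM in C26-bearing plasma and 61.5, 0, 39.5 and 691 CPM in controls. The groups overlapped, and C26-bearing plasma held both the highest libraries and 2 libraries at 0. The mean was 544 ± 589 CPM (SD, n = 6) in C26-bearing and 198 ± 329.7 CPM (SD, n = 4) in control plasma, a log2 fold change of 2.27 (SE 1.72, edgeR adjusted p = 0.651). By miR-5119 part of the library it lay from 203 to 1466 CPM in the 5 rich libraries and from 0 to 61.5 CPM in the 5 poor ones, with no overlap. With that part as a term in the fit the log2 fold change turned to -0.79 (SE 1.13, edgeR adjusted p = 0.932). Without control replicate 4, the only control rich in miR-5119, it was 4.08 (edgeR adjusted p = 0.253).

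The arms of miR-142a, which come from a single precursor, stood far apart in level. miR-142a-5p had 2627, 3320.4, 4277, 2950.1, 2651 and 1889.6 CPM in C26-bearing replicates 1 to 6 and 3401, 2358, 3533 and 2073 CPM in control replicates 1 to 4. The groups overlapped almost fully, with means of 2952 ± 802 CPM (SD, n = 6) and 2841 ± 734 CPM (SD, n = 4). The log2 fold change was 0.05, with a 95% interval from -0.78 to 0.88 (SE 0.379, edgeR adjusted p = 0.962). Its sign turned when libraries were scaled by total counts only, with a log2 fold change of -0.12. Its SD over the 10 plasma libraries was 0.363 on the log2 scale, and 0.769% of the 130 miRNAs tested varied less.

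miR-142a-3p had 429, 338, 1521, 203, 316 and 35.0 CPM in C26-bearing replicates 1 to 6 and 185, 46.2, 107 and 173 CPM in control replicates 1 to 4. C26-bearing replicate 6 was the lowest of all 10 libraries and the other 5 C26-bearing libraries lay above all 4 controls. This order rests in part on very few counts: 1 in C26-bearing replicate 6, 2 in C26-bearing replicate 4, and 3 and 1 in control replicates 2 and 4. The limit of 3 counts is 305 CPM in C26-bearing replicate 4 and 518 CPM in control replicate 4. The order of these 2 libraries is thus not resolved. The means were 474 ± 531 CPM (SD, n = 6) and 128 ± 64.1 CPM (SD, n = 4), a log2 fold change of 1.98 with a 95% interval from -0.03 to 3.98 (SE 0.914, edgeR adjusted p = 0.395). It was above 0 in all 23 alternative fits that tested it, from 0.95 with the miR-5119 part as a term to 2.31 without control replicate 4. In 8 further fits with the term and 1 library left out it lay from 0.03 to 1.44. However, miR-142a-3p passed the filter only through C26-bearing replicates 1, 2, 3 and 5, where it was highest. Without replicate 2, without replicate 3 and in the poor libraries alone it was not tested. The shared sign thus comes only from fits that kept replicates 2 and 3, and is no separate support. The counts behind it are small: 112 in all of C26-bearing plasma and 44 in all of control plasma.

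Within a library the 5p arm of miR-142a was the larger in all 13 libraries. The ratio of 5p to 3p counts, given as log2 with 0.5 added to each count, was 3.18 ± 1.22 (SD, n = 6) with C26 tumours and 4.42 ± 1.05 (SD, n = 4) without. It was 2.68 ± 0.254 (SD, n = 3) in TMVs. The plasma groups overlapped, from 1.48 to 5.18 in C26-bearing and from 3.06 to 5.45 in control libraries. By part it was 2.78 ± 0.816 (SD, n = 5) in libraries rich in miR-5119 and 4.56 ± 0.993 (SD, n = 5) in the poor ones.

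Among the inflammation-induced miRNAs, miR-146a-5p had 2305, 1679, 1687, 1729, 947 and 489.9 CPM in C26-bearing replicates 1 to 6 and 1529, 2004, 2077 and 7948 CPM in control replicates 1 to 4. Control replicate 4 stood far above every other library, with 46 counts of 7962, a share of 0.578% and a 95% Wilson interval from 0.433% to 0.770%, and the remaining controls overlapped with C26-bearing libraries. The means were 1473 ± 646 CPM (SD, n = 6) and 3389 ± 3049 CPM (SD, n = 4), a log2 fold change of -1.18 with a 95% interval from -2.49 to 0.14 (SE 0.600, edgeR adjusted p = 0.441). Without control replicate 4 it was -0.17 (edgeR adjusted p = 0.878), and without the 2 libraries under 10000 counts -0.42 (edgeR adjusted p = 0.693).

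Within each miR-5119 part all C26-bearing libraries had less miR-146a-5p than all controls. No other of the 7 lay wholly on the same side in both parts, while 2.31% of the 130 lay wholly lower and 3.08% wholly higher in C26-bearing plasma in both. In the poor part C26-bearing replicates 5 and 6 had 947 and 489.9 CPM and control replicates 1 to 3 had from 1529 to 2077 CPM, a log2 fold change of -1.40 (SE 0.560, edgeR adjusted p = 0.403). In the rich part C26-bearing replicates 1 to 4 had from 1679 to 2305 CPM and the single control, the library that stands apart for this miRNA, 7948 CPM. With the part as a term the log2 fold change was -1.68 (SE 0.392) and edgeR's adjusted p was 0.0488, which passed 0.05. That fit called 1.54% of the 130 miRNAs, all of them lower. The call was lost in 9 of the 10 fits with the term that left out 1 library each, in which edgeR's adjusted p ran from 0.0502 without C26-bearing replicate 5 to 0.416 without control replicate 4. It held without C26-bearing replicate 3 (edgeR adjusted p = 0.0473). The log2 fold change lay from -2.06 to -1.23 over these 10 fits.

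miR-146b-5p, which shares its seed with miR-146a-5p, was the steadiest of all 130 miRNAs tested over the 10 plasma libraries, with an SD of 0.321 on the log2 scale. It had 1447, 1854, 1782, 1322, 1231 and 1679.7 CPM in C26-bearing replicates 1 to 6 and 2522, 1587, 2336 and 1728 CPM in control replicates 1 to 4. The groups overlapped, and 3 of 6 libraries with C26 tumours were lower than each of the 4 controls. The means were 1553 ± 256 CPM (SD, n = 6) and 2043 ± 455 CPM (SD, n = 4), a log2 fold change of -0.40 with a 95% interval from -1.26 to 0.46 (SE 0.392, edgeR adjusted p = 0.746). It was below 0 in all 26 alternative fits, from -0.60 to -0.15.

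miR-155-5p, the miRNA of activated macrophages and lymphocytes, was counted 0, 1, 4, 2, 11 and 35 times in C26-bearing replicates 1 to 6 and 40, 17, 55 and 0 times in control replicates 1 to 4. In CPM these are 0, 12.5, 95.05, 203, 347 and 1225 in C26-bearing and 351, 262, 310.4 and 0 in control plasma. As with miR-223-3p the groups overlapped while the miR-5119 parts did not, here in the opposite direction: the 5 poor libraries had from 262 to 1225 CPM and the 5 rich ones from 0 to 203 CPM. The means were 314 ± 465 CPM (SD, n = 6) and 231 ± 158 CPM (SD, n = 4), a log2 fold change of 0.29 (SE 1.14, edgeR adjusted p = 0.916). C26-bearing replicate 6 set the sign, which turned without that library (log2 fold change -1.14, edgeR adjusted p = 0.467). A fit to the poor libraries alone gave 1.38 on the log2 scale (SE 0.733, edgeR adjusted p = 0.466).

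Of the 7 miRNAs tested, 2 thus separated the miR-5119 parts without overlap, where 26.2% of all 130 did (9.23% higher and 16.9% lower in the rich part), a share close to that of the 7. The split moved with the red cell and epithelial marker shares given above, which keep miR-5119 in their totals. What these markers contribute to the result was not tested. In the rich libraries miR-223-3p had 175 counts against 7 of miR-155-5p, and in the poor ones 14 against 158. The log2 ratio of miR-223-3p to miR-155-5p was from 0.00 to 6.29 in the rich and from -6.15 to -2.43 in the poor libraries. This gap follows from the opposite separations of the 2 miRNAs and adds no support to them. By the filter on low counts, miR-223-3p was kept only through rich libraries and miR-155-5p only through poor ones. In TMVs the log2 ratio was -5.03 ± 0.587 (SD, n = 3).

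Summed, the 3 induced miRNAs made up from 0.227% to 0.371% with C26 tumours and from 0.398% to 0.703% in controls, with no overlap. The means were 0.312% ± 0.0532 (SD, n = 6) and 0.547% ± 0.147 (SD, n = 4). This separation depended on the counts of miR-5119 in the totals. Without miR-5119 in the totals the shares overlapped, with 0.466% ± 0.134 (SD, n = 6) and 0.699% ± 0.417 (SD, n = 4). No test is given for a sum over chosen miRNAs.

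The lymphoid miRNA miR-150-5p spanned a wide range in C26-bearing plasma. It had 750.5, 2293, 2946, 102, 189 and 315 CPM in C26-bearing replicates 1 to 6 and 844, 447, 446 and 1209.5 CPM in control replicates 1 to 4. Replicates 2 and 3 of C26-bearing plasma lay above all controls and replicates 4 to 6 below all of them. The low libraries rest on few counts, with 1, 6 and 9 in C26-bearing replicates 4 to 6, and control replicate 4 had 7. For C26-bearing replicate 4 the 95% Wilson interval of the share reached 0.0576%, above the 0.0520% of control replicate 2. Its place below all controls is thus not resolved. The means were 1099 ± 1216 CPM (SD, n = 6) and 736 ± 367 CPM (SD, n = 4), a log2 fold change of 0.65 with a 95% interval from -1.35 to 2.65 (SE 0.910, edgeR adjusted p = 0.766). With the miR-5119 part as a term it turned to -0.63 (SE 0.851, edgeR adjusted p = 0.900).

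miR-342-3p, which is made from an intron of Evl, was counted 2, 17, 11, 0, 1 and 0 times in C26-bearing replicates 1 to 6 and 2, 0, 5 and 1 times in control replicates 1 to 4. These counts were too low for the filter. Fitted without a filter on low counts, the estimate was 1.61 on the log2 scale (SE 1.59, edgeR adjusted p = 0.494). That fit tested 955 miRNAs, of which 0.419% were called (0.209% in each direction) and 9.95% had an unadjusted p under 0.05.

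The balance of myeloid to lymphoid miRNAs was expressed as the log2 ratio of summed counts within a library, with 0.5 added to each sum. C26-bearing replicates 1 to 6 gave 2.07, 1.03, 1.07, 4.48, 3.66 and 2.55, and control replicates 1 to 4 gave 2.08, 2.41, 2.95 and 1.04. Myeloid counts exceeded lymphoid counts in all 10 plasma libraries, and the control values lay inside the range of the C26-bearing ones. The means were 2.48 ± 1.39 (SD, n = 6) and 2.12 ± 0.803 (SD, n = 4), so the difference of 0.36 was smaller than the SD of either group. The highest ratio, in C26-bearing replicate 4, rested on 33 myeloid counts against 1 lymphoid count. Without that library the difference was -0.04, without control replicate 4 it was -0.00, and without both libraries under 10000 counts, which are these 2, it was -0.40. The myeloid sum was mostly miR-142a-5p, and with that arm left out the difference was 1.60.

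**Figure D2:**
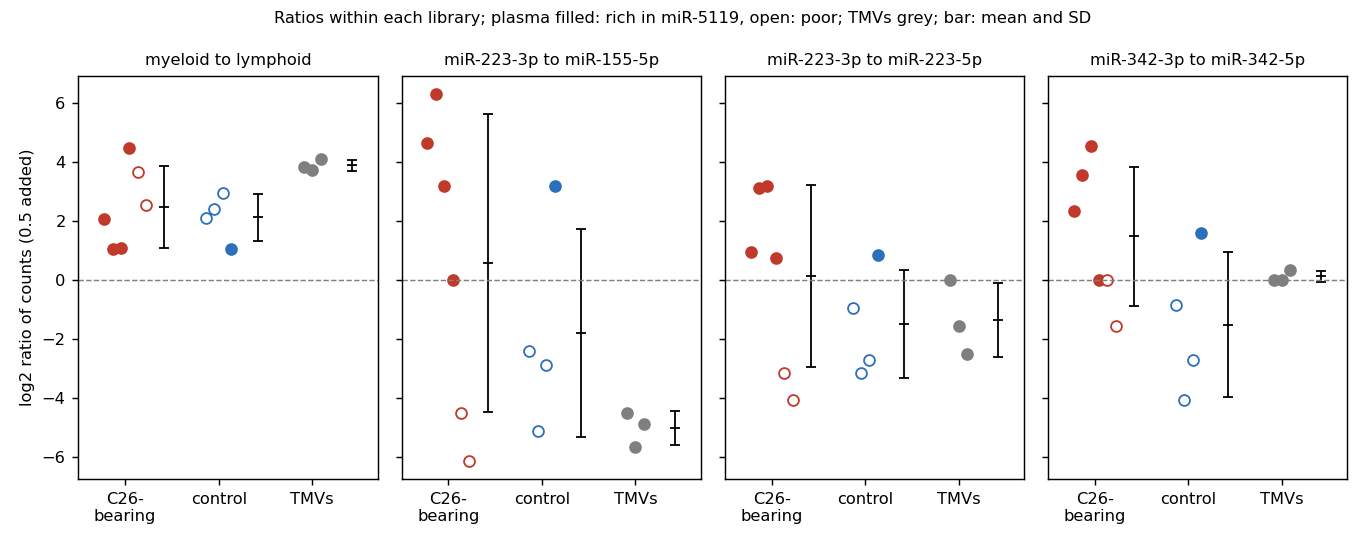
Log2 ratios of counts within each library (0.5 added to each count or sum) for C26-bearing plasma (red, n = 6), control plasma (blue, n = 4) and TMVs (grey, n = 3), with mean and SD beside the points. Filled red and blue circles are libraries rich in miR-5119 and open ones are poor in it. The myeloid to lymphoid ratio overlapped between the plasma groups, from 1.03 to 4.48 and from 1.04 to 2.95. The ratio of miR-223-3p to miR-223-5p was above 0 in the 5 rich and below 0 in the 5 poor libraries. This largely repeats the separation of miR-223-3p itself. In C26-bearing replicate 4 the ratio rested on 2 against 1 counts.

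The arms of Mir223, Mir150 and Mir342 did not keep a fixed balance in plasma. For Mir223, the 3p arm is the one known as active in neutrophils. In the libraries rich in miR-5119 there were 175 counts of miR-223-3p and 26 of miR-223-5p, and in the poor ones 14 and 79. The 3p arm was the larger in each of the 5 rich libraries and the 5p arm in each of the 5 poor ones. This largely repeats the separation of miR-223-3p itself, which the filter kept only through rich libraries, and adds no support to it. The counts were small: 2 against 1 in C26-bearing replicate 4 and 4 against 2 in control replicate 4. C26-bearing replicate 2 alone gave 117 of the 175 counts. How many other pairs of arms separate the parts was not computed. The level of miR-223-5p itself overlapped between the parts, from 95.05 to 346 CPM in the rich and from 61.7 to 279.9 CPM in the poor libraries.

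For Mir342 the counts were smaller. miR-342-5p was counted 0, 1, 0, 0, 1 and 1 times in C26-bearing replicates 1 to 6 and 4, 8, 36 and 0 times in control replicates 1 to 4. The rich libraries summed to 31 counts of the 3p arm and 1 of the 5p arm, and the poor ones to 8 and 50. These sums come from few libraries. C26-bearing replicates 2 and 3 gave 17 and 11 of the 31. Controls gave 48 of the 50, with 36 in control replicate 3, while the poor C26-bearing replicates 5 and 6 gave 1 each. In TMVs the arms were even, with 43 and 39 counts.

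For Mir150 the libraries differed most within C26-bearing plasma. miR-150-3p was counted 6, 1, 1, 5, 2 and 10 times in C26-bearing replicates 1 to 6 and 14, 32, 54 and 4 times in control replicates 1 to 4. Replicates 2 and 3, which had the most miR-150-5p, had 1 count of the 3p arm each, so the log2 ratio of 5p to 3p reached 6.93 and 6.38 there. It was from -1.87 to 1.38 in the other 4 C26-bearing libraries and from -0.14 to 2.73 in controls. Of the remaining arms, miR-155-3p had 0 counts in all 13 libraries and miR-146b-3p had 1 count in C26-bearing plasma, 0 in control plasma and 4 in TMVs. miR-146a-3p had 0 counts in TMVs.

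In TMVs the make-up of the 8 miRNAs was different, and because TMVs and plasma vesicles are different preparations counted in separate tables, material and preparation cannot be told apart. miR-146b-5p was counted 1483, 1221 and 1624 times in TMV replicates 1 to 3, a share of 1.02% ± 0.0674 (SD, n = 3) of all counts. Its share was 0.145% ± 0.0268 (SD, n = 6) in C26-bearing and 0.213% ± 0.0798 (SD, n = 4) in control plasma. All 3 TMV libraries lay above all 10 plasma libraries. What share of all miRNAs separate TMVs from plasma without overlap was not computed. Whether the separations given here and below are unusual is therefore not known.

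Its seed partner was low in the same vesicles. miR-146a-5p was counted 29, 13 and 39 times in TMV replicates 1 to 3, a share of 0.0181% ± 0.00584 (SD, n = 3), below every plasma library. The log2 ratio of miR-146b-5p to miR-146a-5p was 5.84 ± 0.591 (SD, n = 3) in TMVs, a 57.2-fold excess of miR-146b-5p as a geometric mean. In plasma the miRNAs of this pair were near balance, with log2 ratios of 0.22 ± 0.836 (SD, n = 6) in C26-bearing and -0.40 ± 1.24 (SD, n = 4) in control libraries. In TMVs the shared seed was thus carried almost wholly by miR-146b-5p, and in plasma by both.

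**Figure D3:**
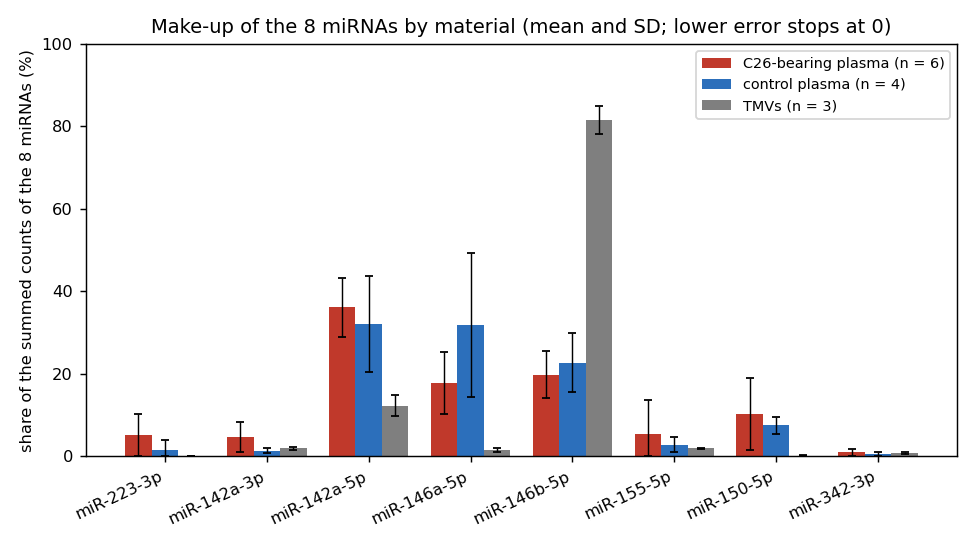
Share of the summed counts of the 8 miRNAs held by each (percent, mean with SD, lower error bars stop at 0) in C26-bearing plasma (n = 6), control plasma (n = 4) and TMVs (n = 3). miR-146b-5p held 81.5% of the sum in TMVs, against 19.7% in C26-bearing and 22.7% in control plasma, where miR-142a-5p held 36.1% and 32.0%.

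Of the other members some were far lower in TMVs than in plasma and some were not. miR-223-3p was counted 1, 0 and 1 times in TMV replicates 1 to 3, a share of 0.000423% ± 0.000369 (SD, n = 3), against 0.0494% ± 0.0579 (SD, n = 6) in C26-bearing and 0.0153% ± 0.0234 (SD, n = 4) in control plasma, where libraries at 0 overlapped with TMVs. miR-150-5p was counted 2, 4 and 1 times, a share of 0.00184% ± 0.00154 (SD, n = 3), below all 10 plasma libraries, which ran from 0.0102% to 0.240%. In contrast miR-342-3p, miR-155-5p and miR-142a-3p in TMVs lay within their plasma ranges. The counts of miR-342-3p were 16, 8 and 19, a share of 0.00973% ± 0.00226 (SD, n = 3). Those of miR-155-5p were 34, 25 and 44, a share of 0.0238% ± 0.00184 (SD, n = 3), and those of miR-142a-3p 40, 22 and 40, a share of 0.0234% ± 0.00386 (SD, n = 3). miR-142a-5p had 218, 143 and 310 counts in TMVs, a share of 0.153% ± 0.0274 (SD, n = 3). The 3 TMV values, from 0.127% to 0.182%, overlapped control plasma only at control replicate 4, with 0.151% from 12 counts. In that library miR-5119 held 46.1% of the counts. The other controls ran from 0.274% to 0.476%. Of C26-bearing plasma only replicate 6, at 0.168%, lay in the TMV range. The myeloid to lymphoid log2 ratio of TMVs was 3.88 ± 0.196 (SD, n = 3), and 1.01 with miR-142a-5p left out. With miR-223-3p against miR-150-5p, which leaves out miR-142a and miR-342-3p and rests on 2 against 7 counts, it was -1.30.

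Likeness between profiles was measured as the root-mean-square distance of log2 CPM over the 10 plasma libraries, each profile centred on its own mean. Flat profiles lie close to each other by this measure, and all profiles share the libraries, their depth and their make-up. miR-142a-5p and miR-146b-5p lay 0.355 apart, the closest pair among the 7, and miR-146b-5p was the nearest of 129 candidates to miR-142a-5p, whose median distance was 1.11. The nearest to miR-223-3p were miR-23a-3p (0.691) and miR-15b-5p (0.967), and to miR-142a-3p miR-93-5p (0.493) and miR-21a-5p (0.704). The nearest to miR-155-5p were miR-328-3p (0.646) and miR-486a-5p (0.683), which is found in red cells. For miR-146a-5p they were miR-140-3p (0.594) and miR-148a-3p (0.686), and for miR-150-5p miR-101b-3p (0.690) and let-7g-5p (0.828). The farthest pair among the 7 was miR-223-3p and miR-155-5p, at 3.58.

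**Figure D4:**
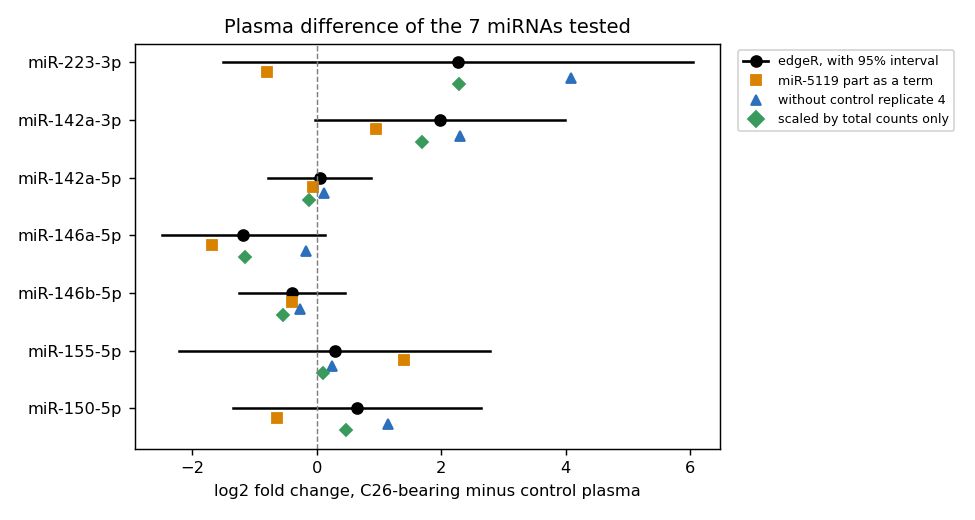
Log2 fold change (C26-bearing minus control plasma, 6 against 4 libraries) of the 7 miRNAs tested, with the edgeR estimate and its 95% interval in black, and estimates with the miR-5119 part as a term, without control replicate 4 and with total-count scaling. All 7 intervals include 0, and the estimate for miR-223-3p moved from 2.27 to -0.79 with the part as a term.

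A wider list of 22 other miRNAs linked to white cells and inflammation gave 14 that could be tested in plasma. None passed an adjusted p of 0.05 with edgeR, 7 had a log2 fold change above 0 and 7 below, with a median of 0.05. An unadjusted p under 0.05 was found for 2 of the 14, against the 11.5% given above. miR-21a-5p, which macrophages and many tumours make in quantity, had 25596 ± 11583 CPM (SD, n = 6) in C26-bearing and 9944 ± 3393 CPM (SD, n = 4) in control plasma, a log2 fold change of 1.37 (edgeR adjusted p = 0.304). It was called higher by limma voom with quality weights (adjusted p = 0.0247) and by DESeq2 (adjusted p = 0.0317). miR-181a-5p, which tunes T cell receptor signalling, had 489.8 ± 255 CPM (SD, n = 6) and 1484 ± 687 CPM (SD, n = 4), a log2 fold change of -1.61 (edgeR adjusted p = 0.335). It was called lower by limma voom (adjusted p = 0.0247) but not by DESeq2 (adjusted p = 0.0646). Within the libraries rich in miR-5119 its log2 fold change was -0.19. miR-17-5p and miR-16-5p, regulators of proliferation, had log2 fold changes of 1.85 and 1.30 (edgeR adjusted p = 0.651 for each). Of these 14 miRNAs 7 separated the miR-5119 parts without overlap, where 26.2% of all 130 did.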

How the data were processed

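The authors deposited untransformed counts of mature miRNAs, in 1 table for TMVs and 1 for plasma. The authors trimmed reads with cutadapt 1.10 after bcl2fastq, per the submitters' processing notes. The sources used here give no aligner, counter, annotation or build. Sample titles gave the groups and replicate numbers. The members and lists were chosen with earlier results of these data known, and no p is adjusted over a list alone.

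For plasma, filterByExpr (by group, minimum count 10), TMM scaling and a robust quasi-likelihood test in edgeR 4.0.16 (R 4.3.3) were run on 6 against 4 libraries. The adjusted p was called at 0.05. The SE is the fold change over the root of F. Libraries with over 20% miR-5119 were called rich. Ratios added 0.5 to each count. Intervals of shares are Wilson intervals at 95%, and these intervals and the 3-count limits hold counting error alone, because PCR copies were not marked by identifiers. The named miRNAs follow a rule: the 8 members, the opposite arm of each, the wider list with the 4 of smallest p, and the 2 nearest profiles of each member tested. The fit was tested on simulated counts. Sequences were matched by name to a RefSeq table, and 7 of 8 members matched. The alternatives tried were scaling by RLE, by upper quartile or by total counts, 2 other filters, DESeq2 1.42.0, limma 3.58.1 voom, an exact permutation test over 210 splits, no robust estimation, a replicate block, libraries left out, and the miR-5119 part as a term, alone or removed. The part alone for ratios and shares, and the term with each library left out, were chosen after seeing the data. Other steps ran in Python 3.11.15 (pandas 2.3.3, numpy 2.4.6, scipy 1.17.1).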

Additional observations from a re-analysis of the deposited data

Results flagged for a closer look

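In 40 sets of 4 or 6 values, 5 had a library far from the others of its group by Dixon's criterion at 95%. The criterion marks about 1 in 20 sets of independent, normally spread values. These sets share libraries, and the 5 marked values are unlogged CPM, so no comparison with chance is drawn. Control replicate 4, with 7962 counts, gave 3 of them. Its miR-146a-5p level was 7948 CPM against 2077 CPM in the next control. Its miR-223-3p level was 691 CPM, from 4 counts, against 61.5 CPM, and its miR-342-3p level was 173 CPM, from 1 count, against 28.2 CPM. C26-bearing replicate 3, the library with the largest share of miR-5119 (58.7%), had 1521 CPM of miR-142a-3p against 429 CPM in the next library. C26-bearing replicate 6 had 1225 CPM of miR-155-5p, from 35 counts, against 347 CPM. The part that depth or the miR-5119 share plays in these values was not tested.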

How the results depend on the processing

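Of all 130 miRNAs, edgeR called 0 and 15 had an unadjusted p under 0.05. The count of calls was 4 without a filter and with DESeq2, 17 with limma voom and quality weights, 2 with the miR-5119 part as a term and 1 within the libraries rich in miR-5119. It ran from 0 to 1 with each library left out and from 0 to 2 with the term and each library left out. RLE scaling moved the median log2 fold change of all 130 by 0.18. A replicate block called 0, but replicate numbers did not pair the libraries: deviations of same-numbered libraries had correlations of -0.37, -0.29, -0.30 and 0.16, and 1 of 4 C26-bearing libraries correlated best with its own number. The sign of miR-142a-5p turned to -0.12 with total counts, -0.15 without a filter, -0.13 without the 2 libraries under 10000 counts, -0.029 without miR-5119 in the table, -0.057 with the part as a term and -0.45 within the poor libraries, and it ran from -0.13 to 0.12 with each library left out. miR-155-5p turned to -2.32 with the replicate block, -2.37 with limma voom and -0.18 in the exact permutation test, and ran from -1.14 to 0.65 with each library left out. miR-150-5p turned to -0.00071 without both controls with 2 numbers, -0.63 with the term for the part, -1.15 in the poor libraries and -0.19 in the exact permutation test. miR-223-3p turned to -0.79 and miR-17-5p to -0.48 with the part as a term, and miR-16-5p to -0.27 within the poor libraries. Without control replicate 4 the values were 4.08 for miR-223-3p, 1.15 for miR-150-5p, 2.27 for miR-17-5p and 2.17 for miR-16-5p. With the term and each library left out in turn, miR-142a-5p ran from -0.28 to 0.11 and miR-155-5p from 0.22 to 1.94. In the same fits miR-150-5p ran from -0.99 to -0.36 and miR-16-5p from -0.29 to 0.15. Only 8 of these fits tested miR-223-3p, which ran from -4.19 to -0.45. Only 3 tested miR-17-5p, which ran from -1.55 to -0.0074. Neither miR-223-3p nor miR-17-5p was tested without C26-bearing replicate 2 or without C26-bearing replicate 3. The difference in myeloid to lymphoid log2 ratio, 0.36, became 1.81 with miR-223-3p against miR-150-5p and 1.60 without miR-142a-5p, and in TMVs the ratio of 3.88 became -1.30 and 1.01. The difference in the share of the 8, -0.17 percentage points, became 0.060 without miR-5119 in the totals. The causes were not tested. In the shallowest library 1 count is 173 CPM.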
